A study of Homo sapiens with 8 samples.

Results

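The MYC, MAX and MXD network was followed through 10 genes chosen by name: the activators MYC, MYCN and MYCL, their partner MAX, the repressors MXD1, MXI1, MXD3 and MXD4, and the large repressors MNT and MGA. Each of the 10 had a single probe set with 1 gene symbol on the Affymetrix Human Gene 1.0 ST array, among 18417 genes tested, so no choice between probe sets was needed. Expression was measured on 8 arrays, 2 for each of 4 groups of human ovarian carcinoma cells. The groups were untreated A2780CP20, a subline of A2780 known for cisplatin resistance, A2780 labelled as given temsirolimus for 24 h, A2780 labelled as given temsirolimus for 48 h, and untreated A2780. Temsirolimus, an ester of rapamycin, blocks signalling by mTORC1, a kinase complex that drives growth and protein synthesis. All cells were kept in RPMI with fetal bovine serum. The drug stock was in DMSO, the labels give no dose, and they do not say whether the untreated cells received DMSO. Each group stands for 1 cell line in culture, and nothing in the labels says that the 2 arrays of a group came from separate cultures, so every p-value reflects just the scatter between these arrays, which may be technical.

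The proteins of this network bind DNA as pairs through a basic helix-loop-helix leucine zipper. MYC, MYCN and MYCL pair with MAX, bind the E-box CACGTG and activate genes of growth, ribosome production and the cell cycle. MXD1, MXI1, MXD3, MXD4 and MNT pair with the same MAX, bind the same E-box and repress through the SIN3 and HDAC corepressor, while MGA pairs with MAX within the Polycomb complex PRC1.6. MYC messenger RNA and protein turn over fast, and translation of MYC depends in part on mTORC1, so messenger RNA alone does not give the level of the protein.

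Values are log2 intensities as deposited. Each difference is one group mean minus another on the log2 scale, given ± its SE from a limma fit to all 8 arrays (n = 2 arrays per group), and a gene was called, and is written as having risen or fallen, when its Benjamini-Hochberg adjusted p over the 18417 genes was under 0.05. In these bulk samples a smaller share of expressing cells and less RNA per cell cannot be told apart.

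The arrays labelled 24 h stood apart from the other 6. Across genes the 2 arrays of a group correlated at r = 0.991 to 0.997, and the arrays labelled 24 h correlated with every array of another group at no more than 0.952, a description with no test because genes are not independent replicates. Of 10 mesenchymal and fibroblast markers, 7 fell and 0 rose on them against untreated A2780 (0 higher also at an unadjusted p under 0.05 in limma), where 15.3% of all genes fell and 14.9% rose. The mean log2 intensity of that list was 7.54 and 7.55 on the arrays labelled 24 h, against 10.11 and 10.09 on those of untreated A2780. SNAI2, a transcription factor of mesenchymal cells, read 5.39 and 5.83 on the arrays labelled 24 h, against 11.62 and 11.56 on those of untreated A2780, and COL1A2, a collagen chain, read 6.61 and 6.57 against 11.95 and 12.01. At 48 h SNAI2 read 12.14 and 12.27 and COL1A2 11.96 and 12. The 3 markers of the list not called at 24 h were VIM (0.13 ± 0.09), FN1 (0.18 ± 0.13) and COL1A1 (0.07 ± 0.09). VIM read 12.90 and 12.91 on the arrays labelled 24 h, against 12.81 and 12.75 on those of untreated A2780. Across genes the highest r of an array labelled 48 h with another group was 0.996, as high as between the 2 arrays of untreated A2780. Of 11 epithelial markers 2 rose on the arrays labelled 24 h, a share near that of all genes, and these were KRT18 (2.94 ± 0.22) and EPCAM (2.17 ± 0.11), with a median of 0.07 over the list. Leukocyte and endothelial markers averaged 5.52 to 5.86 on all 8 arrays. The 8 ovarian and Mullerian markers averaged 6.06 to 6.55 per array. Signal over background is not known, so these values do not show whether the markers of the labelled tissue were present. Whether the arrays labelled 24 h or 48 h hold the cells and treatment that their labels name was not tested. For those labelled 24 h, the drug and another difference between these cells cannot be told apart in any value below. Every mention of 24 h or 48 h refers to those arrays as labelled.

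**Figure D1:**
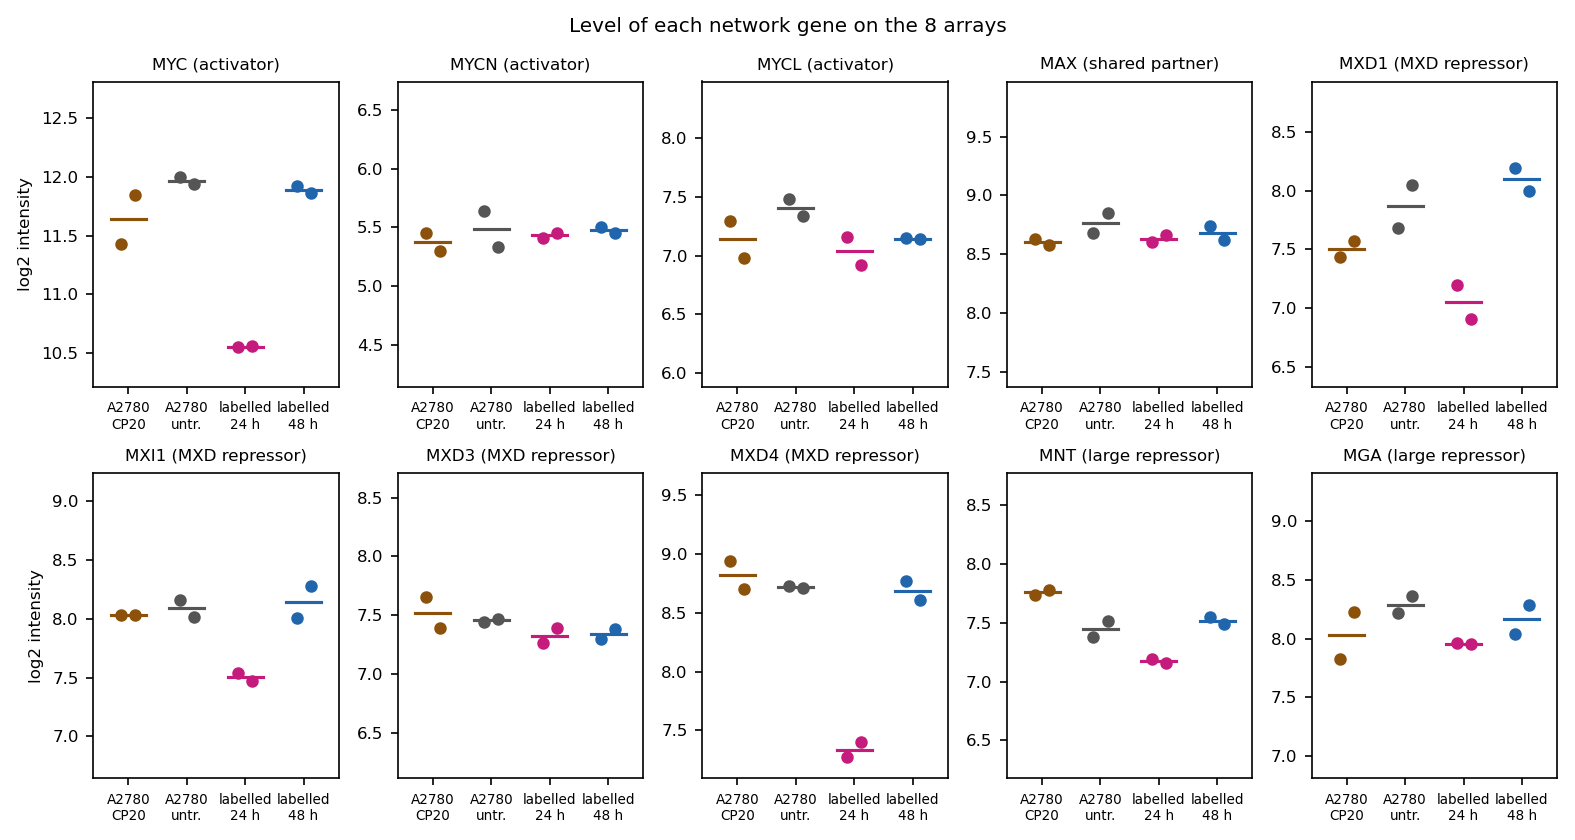
Log2 intensity of the 10 network genes on the 8 arrays. Each point is 1 array, each bar the mean of 2 arrays, and every panel spans the same range on the y axis. On the arrays labelled 24 h MYC read 10.55 and 10.56 and MXD4 7.27 and 7.40, below the points of the other 6 arrays.

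MYC fell on the arrays labelled 24 h, and so did 3 of the 4 MXD repressors, while MAX and the other MYC paralogs were not called. MYC read 10.55 and 10.56 on the arrays labelled 24 h, against 12 and 11.94 on those of untreated A2780. It read 11.92 and 11.86 at 48 h and 11.43 and 11.85 in A2780CP20. The pair labelled 24 h thus lay below all 6 other arrays, and the groups did not overlap. The difference from untreated A2780 was -1.42 ± 0.13, a 2.67-fold lower value (adjusted p = 7.83e-05 in limma). In the order of the levels, the arrays labelled 24 h were lowest and A2780CP20 next, 1.09 apart (24 h minus A2780CP20 -1.09 ± 0.13, adjusted p = 0.000376). The next neighbours, 48 h and A2780CP20, did not differ beyond their spread (0.25 ± 0.13, adjusted p = 0.193), nor did 48 h and untreated A2780 (-0.08 ± 0.13, adjusted p = 0.867). The step between 48 h and A2780CP20 rested on single arrays: it was 0.46 and called without A2780CP20 untreated replicate 2 (adjusted p = 0.00918) and 0.04 without replicate 1 (adjusted p = 0.784).

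The other activators were flat or nearly so. MYCN, the paralog best known from neuroblastoma, read 5.30 to 5.64 over the 8 arrays, its group means spanned 0.11, and the arrays of untreated A2780 alone were 0.31 apart. Its level lay near the lower quartile of the arrays (5.03 to 5.13), where signal over background is not known and a change could be understated. MYCL, the paralog first found in lung cancer, read 7.16 and 6.92 on the arrays labelled 24 h, against 7.48 and 7.34 on those of untreated A2780. It read 7.15 and 7.14 at 48 h and 7.30 and 6.98 in A2780CP20. Untreated A2780 was thus the highest group for MYCL, with no overlap with any other group, but none of the differences was called (-0.37 ± 0.13 at 24 h, adjusted p = 0.067; -0.27 ± 0.13 at 48 h, adjusted p = 0.509; -0.27 ± 0.13 in A2780CP20, adjusted p = 0.195). MYCL was called at 24 h with the replicate number as a block (adjusted p = 0.03) and without either A2780CP20 array (adjusted p = 0.0268 for each). MYCL has a pseudogene, MYCLP1, so its probe set is uncertain.

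MAX, the shared partner of the network, kept within 8.58 to 8.85 on the 8 arrays. Its difference from untreated A2780 was -0.14 ± 0.10 at 24 h (95% interval -0.36 to 0.09), -0.09 ± 0.10 at 48 h (-0.31 to 0.14) and -0.16 ± 0.10 in A2780CP20 (-0.39 to 0.07). The intervals leave room for a fall of at most about 0.39, smaller than the fall of MYC or MXD4 on the arrays labelled 24 h.

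MXD4, a repressor of the MXD group, had the widest span of group means among the 10 genes, 1.49. It read 7.27 and 7.40 on the arrays labelled 24 h, against 8.73 and 8.71 on those of untreated A2780. It read 8.77 and 8.61 at 48 h and 8.94 and 8.70 in A2780CP20. The arrays labelled 24 h lay more than 1 log2 unit below all others, and the remaining 6 overlapped. MXD4 fell by 1.39 on the log2 scale at 24 h, with an SE of 0.11 (2.61-fold lower, adjusted p = 3.35e-05 in limma). The neighbours above it in the order, 48 h and untreated A2780, differed by -0.03 ± 0.11 (adjusted p = 0.947), and A2780CP20 minus untreated A2780 was 0.10 ± 0.11 (adjusted p = 0.577).

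MXD1, the first MXD repressor found and one linked to terminal differentiation, read 7.20 and 6.91 on the arrays labelled 24 h, against 7.68 and 8.05 on those of untreated A2780. It read 8.19 and 8 at 48 h and 7.43 and 7.57 in A2780CP20. The 24 h arrays were lowest, the A2780CP20 arrays next, and untreated A2780 and 48 h overlapped. MXD1 fell at 24 h (-0.81 ± 0.15, 1.75-fold lower, adjusted p = 0.00391). Against A2780CP20 the arrays labelled 24 h were at -0.45 ± 0.15 (adjusted p = 0.0526), and A2780CP20 minus untreated A2780 was -0.37 ± 0.15 (adjusted p = 0.134), so neither step between these neighbours was called, although 48 h minus A2780CP20 was (0.60 ± 0.15, adjusted p = 0.0263). The step from A2780CP20 to 24 h was called without dim genes (adjusted p = 0.0411), with an intensity trend in the prior (0.0418) and without either array of untreated A2780 (0.0409 for each). The call of 48 h against A2780CP20 ended without A2780 temsirolimus 48 h replicate 1 (adjusted p = 0.129), without its replicate 2 (0.0884) and without A2780CP20 untreated replicate 1 (0.101).

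MXI1, also known as MXD2, read 7.54 and 7.47 on the arrays labelled 24 h, against 8.16 and 8.02 on those of untreated A2780. It read 8.01 and 8.28 at 48 h and 8.03 on each A2780CP20 array. The pair labelled 24 h lay below the 6 other arrays, which overlapped with each other. MXI1 fell at 24 h (-0.59 ± 0.11, 1.5-fold lower, adjusted p = 0.00436). MXD3, the MXD gene expressed in dividing cells in mouse, gave no such fall: it read 7.26 to 7.65 over all 8 arrays and was at -0.13 ± 0.11 on the arrays labelled 24 h (95% interval -0.38 to 0.12, adjusted p = 0.443). The interval of MXD3 there lay above that of MXD4 (-1.64 to -1.13), although the difference between the genes itself was not tested.

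**Figure D2:**
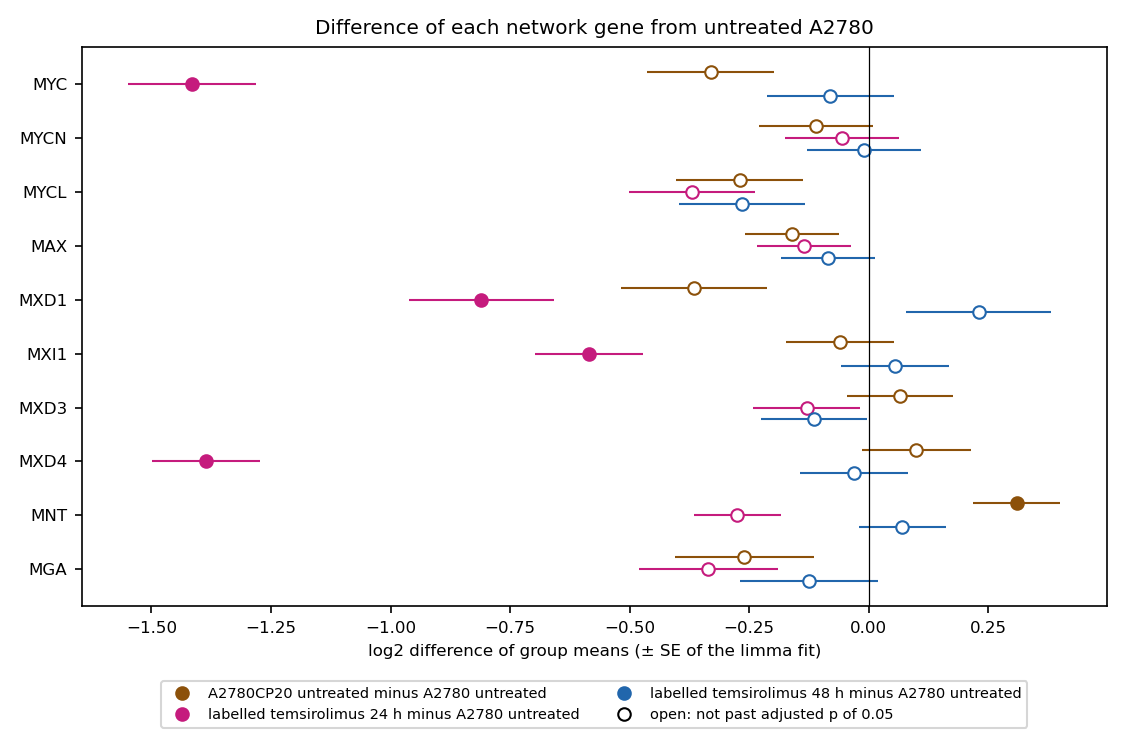
Log2 difference of each network gene from untreated A2780, with the SE of the limma fit as bars (n = 2 arrays per group). Filled points passed an adjusted p of 0.05: MYC, MXD1, MXI1 and MXD4 at 24 h and MNT in A2780CP20, while at 48 h none did.

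The large repressors differed from each other: MNT was called in 3 comparisons and MGA in none. MNT, the MAX partner that is present in both resting and dividing cells, read 7.74 and 7.78 in A2780CP20, against 7.38 and 7.52 in untreated A2780. It read 7.19 and 7.16 on the arrays labelled 24 h and 7.55 and 7.49 at 48 h. A2780CP20 was the highest group and 24 h the lowest, neither overlapping another group. MNT rose in A2780CP20 by 0.31 ± 0.09 (1.24-fold, adjusted p = 0.0483), and this was the only call among the 10 genes in that comparison. The call was marginal: it ended with only the groups compared in the fit (adjusted p = 0.166), with an intensity trend in the prior (0.053), with a robust prior (0.05), with the replicate number as a block (0.0564), without both arrays labelled 24 h (0.088) and without any single array of the 8 (0.063 to 0.219). At 24 h MNT stood at -0.28 ± 0.09 against untreated A2780 (adjusted p = 0.0517), just short of the threshold, and it was called without the dimmest 25% of genes (adjusted p = 0.0327) and without either A2780CP20 array (0.0324 for each). Against A2780CP20 the arrays labelled 24 h were lower in MNT by 0.59 (-0.59 ± 0.09, adjusted p = 0.00144), and 48 h minus A2780CP20 was -0.24 ± 0.09 (adjusted p = 0.0902).

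MGA, the scaffold of PRC1.6, read 7.96 and 7.95 on the arrays labelled 24 h, against 8.22 and 8.36 on those of untreated A2780. It read 8.04 and 8.29 at 48 h and 7.83 and 8.23 in A2780CP20. The arrays labelled 24 h lay below those of untreated A2780 without overlap, but the difference was not called (-0.34 ± 0.15, adjusted p = 0.124). It was called without either A2780CP20 array (adjusted p = 0.041 for each) and with only the groups compared (0.0288). The A2780CP20 arrays differed from each other by 0.40 in MGA and by 0.42 in MYC, the widest gaps between arrays of a group for any of the 10 genes, with replicate 1 the lower in both.

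Counted over the network, 4 of 10 genes fell and 0 rose on the arrays labelled 24 h against untreated A2780 (7 lower and 0 higher at an unadjusted p under 0.05 in limma). The difference was negative for all 10 genes, with a median of -0.35, where the median of all genes tested was 0.01. Of all genes tested, 30.1% were called in that comparison, 15.3% lower, so 4 of 10 is near the background in either direction and above it for falls. With either A2780CP20 array left out (replicate 1 or replicate 2) the count of 4 grew, and so did the number of all genes called. The arrays of the 2 groups did not overlap for 9 of the 10 genes, as for 66.0% of all genes. In A2780CP20 against untreated A2780 1 gene rose and 0 fell (2 lower at an unadjusted p under 0.05 in limma, MYC and MXD1), with 18.4% of all genes called, 6.37% higher and 12% lower. MYC stood at -0.33 ± 0.13 in A2780CP20 (adjusted p = 0.123), and without A2780CP20 untreated replicate 2 it was at -0.54 and called (adjusted p = 0.00645).

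At 48 h none of the 10 genes differed from untreated A2780 by limma's test (0 called, and 0 at an unadjusted p under 0.05), where 0.179% of all genes were called, 0.163% higher and 0.0163% lower. The differences ran from MYCL at -0.27 ± 0.13 to MXD1 at 0.23 ± 0.15. For MYC the 95% interval was -0.38 to 0.22 and for MXD4 -0.29 to 0.23, so a fall of the size on the arrays labelled 24 h lay outside both. Set directly against the arrays labelled 24 h, those at 48 h were higher in 5 of 10 genes and lower in 0 (0 lower also at an unadjusted p under 0.05 in limma), with 31% of all genes called, 15.2% higher and 15.7% lower. These were MXD4 (1.36 ± 0.11, adjusted p = 3.69e-05), MYC (1.34 ± 0.13, adjusted p = 0.00011), MXD1 (1.04 ± 0.15, adjusted p = 0.00101), MXI1 (0.64 ± 0.11, adjusted p = 0.0027) and MNT (0.35 ± 0.09, adjusted p = 0.0202). The MNT call ended without any single array labelled 24 h or 48 h (adjusted p = 0.0715 to 0.116). Against A2780CP20, the arrays labelled 24 h were lower in 4 of 10 genes (MYC, MXI1, MXD4 and MNT) and higher in 0. At an unadjusted p under 0.05 in limma 5 were lower, MXD1 being the other, and 0 higher. Of all genes 33.7% were called there, 17.8% higher and 15.9% lower. The count of 4 ranged from 3 to 5 over the alternatives, and the MXI1 call ended without A2780 temsirolimus 24 h replicate 2 (adjusted p = 0.053). Those at 48 h were higher than A2780CP20 in MXD1 alone and lower in 0 (1 lower, MNT, at an unadjusted p under 0.05 in limma), with 22.7% of all genes called, 13.5% higher and 9.16% lower. The comparisons at 24 h, at 48 h and of A2780CP20 share the arrays of untreated A2780, so their errors are linked.

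Promoter windows are shown for the repressors MXD4 and MXD1, which fell together on the arrays labelled 24 h, and for MNT, the single call in A2780CP20, because the network's own proteins bind the E-box. The windows run from 250 bases before to 50 bases after the RefSeq start (assembly GRCh38.p14) and are written 5′ to 3′ along the gene, with each CACGTG in capitals. The MXD4 window is chr4:2262060-2262359 on the minus strand, the MNT window chr17:2401011-2401310 on the minus strand, and the MXD1 window chr2:69914859-69915158 on the plus strand.
MXD4: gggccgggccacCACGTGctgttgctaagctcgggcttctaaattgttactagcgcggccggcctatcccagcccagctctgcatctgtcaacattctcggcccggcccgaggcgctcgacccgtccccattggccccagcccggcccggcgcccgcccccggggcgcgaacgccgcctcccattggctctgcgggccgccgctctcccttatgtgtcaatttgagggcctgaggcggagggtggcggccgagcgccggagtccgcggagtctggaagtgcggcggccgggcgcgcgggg
MNT: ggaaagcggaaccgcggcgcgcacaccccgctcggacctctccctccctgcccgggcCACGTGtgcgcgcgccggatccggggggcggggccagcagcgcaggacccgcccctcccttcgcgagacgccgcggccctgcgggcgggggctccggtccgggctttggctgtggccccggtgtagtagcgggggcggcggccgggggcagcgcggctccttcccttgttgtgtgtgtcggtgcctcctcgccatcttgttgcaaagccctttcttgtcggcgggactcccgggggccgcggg
MXD1: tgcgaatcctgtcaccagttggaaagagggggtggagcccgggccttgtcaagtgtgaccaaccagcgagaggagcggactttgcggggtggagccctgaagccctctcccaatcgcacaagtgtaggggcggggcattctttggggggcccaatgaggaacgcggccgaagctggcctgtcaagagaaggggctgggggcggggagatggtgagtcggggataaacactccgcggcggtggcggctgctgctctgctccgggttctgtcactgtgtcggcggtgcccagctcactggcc

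The E-box stood 238 to 233 bases before the start of MXD4 and 193 to 188 bases before that of MNT. CACGTG reads the same on both strands, and it was the only motif searched. It was found in 2 of the 14 windows of the 9 members listed, those of MXD4 and MNT, and in 7.26% of all 35116 windows of that length. MYC had no window at hand, so its promoter was not searched. The windows of MXD4 and MNT are also rich in G and C (72.3% and 76.0%, against a median of 58.7% over all windows). MXD1 and the 3 windows of MXI1, which also fell at 24 h, did not hold these letters. A match is a description of the sequence and not a site shown to be bound.

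Many genes that MYC is known to activate were higher on the arrays labelled 24 h, where MYC was lowest. Of 57 measured genes of a list of MYC-activated genes, 30 rose and 2 fell on the arrays labelled 24 h. Their median difference was 0.30. Of all genes tested 14.9% rose and 15.3% fell, with a median difference of 0.01. The share of the list that fell was thus below that of all genes. ODC1, the rate-limiting enzyme of polyamine synthesis and a classic MYC target, read 12.94 and 12.99 on the arrays labelled 24 h, against 11.59 and 11.59 on those of untreated A2780. It rose by 1.38 ± 0.09 (adjusted p = 1.09e-05), with all 6 other arrays at 12.10 or below. RRP9 and RRP12, factors of ribosome assembly, rose by 1.19 ± 0.14 and 1.01 ± 0.09, and NOP16, a nucleolar protein gene, by 0.78 ± 0.09. The members that fell were CAD, the enzyme that starts pyrimidine synthesis (-0.40 ± 0.09, adjusted p = 0.00839), and TFB2M, a mitochondrial transcription factor (-0.34 ± 0.09, adjusted p = 0.0214). The count of 2 that fell was 0 without A2780 untreated replicate 2 or A2780 temsirolimus 24 h replicate 1, and 1 without the other array of either group.

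The same list lay higher in A2780CP20, where MYC was not called. There 22 of 57 rose and 2 fell, with a median of 0.25. Of all genes 6.37% rose and 12% fell, with a median of 0.03. The share of the list that fell was again below that of all genes. RRP9 rose by 0.71 ± 0.14, NOP16 by 0.65 ± 0.09 and HSPE1, the mitochondrial co-chaperonin, by 0.62 ± 0.12. The genes that fell were PRMT3, a ribosomal protein methyltransferase (-0.52 ± 0.09), and CBX3, a heterochromatin protein (-0.34 ± 0.09). The count of 2 that fell was 1 with quantile normalization and without both arrays labelled 24 h, and 0 with only the groups compared. It was also lower without any 1 array of untreated A2780 or any 1 labelled 24 h or 48 h. Without A2780CP20 untreated replicate 2 it was higher. Fitting only the groups compared took the count of 22 to 4, while all genes called went from 3388 to 1022. Leaving out either array of untreated A2780 also lowered the count, and again fewer of all genes were called. At 48 h 0 of 57 were called by limma (2 higher and 0 lower at an unadjusted p under 0.05), and the median was 0.01. Of 13 measured genes that MYC is known to repress, 4 rose and 4 fell at 24 h (median 0.09), where 14.9% of all genes rose and 15.3% fell. In A2780CP20 1 rose and 1 fell (median 0.04), near the 6.37% and 12% of all genes, and 0 were called at 48 h (1 higher and 1 lower at an unadjusted p under 0.05 in limma). CDKN1B, which encodes the CDK inhibitor p27, fell by 1.15 at 24 h and by 0.79 in A2780CP20 on the log2 scale, whereas CDKN2B, which encodes p15, rose by 0.65 ± 0.13 and 0.45 ± 0.13.

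**Figure D3:**
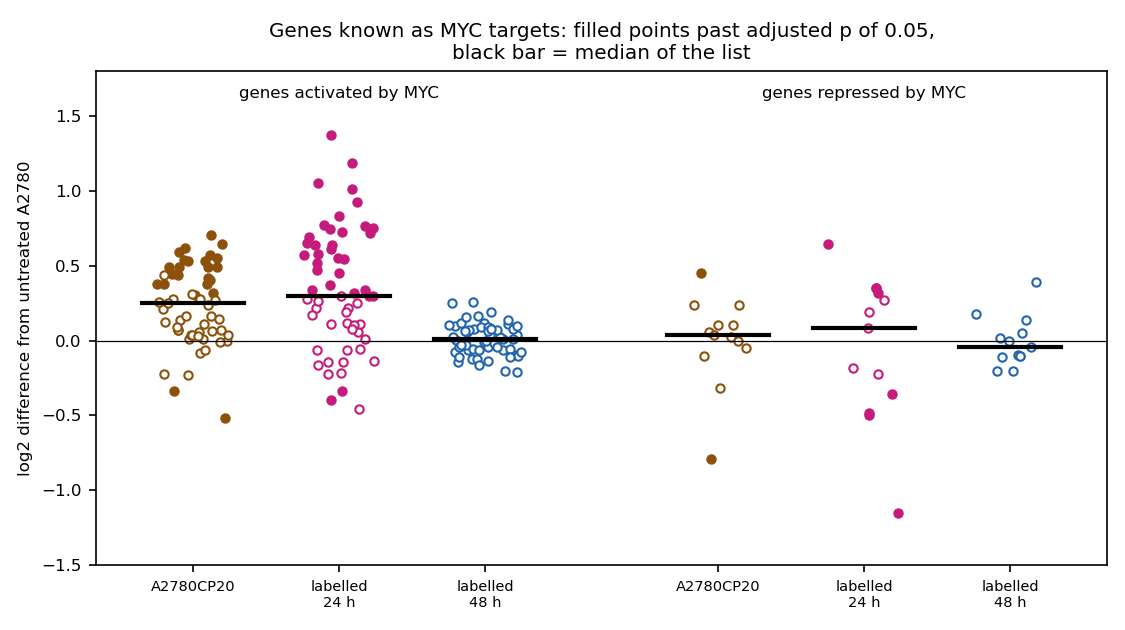
Log2 difference from untreated A2780 of 57 genes known to be activated and 13 known to be repressed by MYC, 1 point per gene, with filled points past an adjusted p of 0.05 and the list median as a black bar. The medians of the activated genes were 0.25 in A2780CP20, 0.30 on the arrays labelled 24 h and 0.01 at 48 h.

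Of 13 measured genes of the SIN3 and HDAC corepressor, through which the MXD proteins act, 6 fell and 2 rose on the arrays labelled 24 h, with a median of -0.24. Of all genes 15.3% fell and 14.9% rose there, so the count that rose was near the background. SIN3A, the scaffold that binds MXD proteins, read 9.06 and 9.10 on the arrays labelled 24 h, against 9.72 and 9.70 on those of untreated A2780 (-0.63 ± 0.11, adjusted p = 0.00247). ARID4B, a DNA-binding subunit, fell by 1.29 on the log2 scale (adjusted p = 9.6e-05), and HDAC1, a catalytic deacetylase, was at -0.435 ± 0.091 (adjusted p = 0.00686). BRMS1 (0.93 ± 0.13) and RBBP7 (0.69 ± 0.09), further subunits, rose. SIN3B, the paralog scaffold, and HDAC2 were not called. In A2780CP20 3 of the 13 fell and 1 rose. Of all genes 12% fell and 6.37% rose there, so the count that rose was near the background. With only the groups compared in the fit 0 of the 13 were called in either direction, while all genes called went from 3388 to 1022. The count of 3 that fell was 1 with quantile normalization, with median centring and without both arrays labelled 24 h. The count that rose was 0 without both arrays labelled 24 h. Without either array of untreated A2780 (replicate 1 or replicate 2) fewer were also called, both of the list and of all genes. The same held without A2780CP20 untreated replicate 1 and without any 1 array labelled 24 h or 48 h. At 48 h 0 of 13 were called by limma (0 higher and 1 lower at an unadjusted p under 0.05).

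MGA's partners in PRC1.6 gave 3 lower and 2 higher of 10 measured at 24 h, and 3 lower and 1 higher in A2780CP20. Of all genes 15.3% were lower and 14.9% higher at 24 h, and 12% lower and 6.37% higher in A2780CP20, so the counts of higher genes were near the background. TFDP2, the dimerization partner of E2F factors, read 9.67 and 9.58 on the arrays labelled 24 h and 9.64 and 9.98 in A2780CP20, against 10.54 and 10.61 in untreated A2780, and it fell in both (-0.95 ± 0.12 and -0.77 ± 0.12). L3MBTL2, a chromatin-binding subunit, rose at 24 h (0.53 ± 0.10) and E2F6, which brings the complex to E2F sites, was not called in either. At 48 h 0 of 10 were called by limma (2 higher and 0 lower at an unadjusted p under 0.05), the larger of these being PCGF6 at 0.31 ± 0.09 (adjusted p = 0.29).

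**Figure D4:**
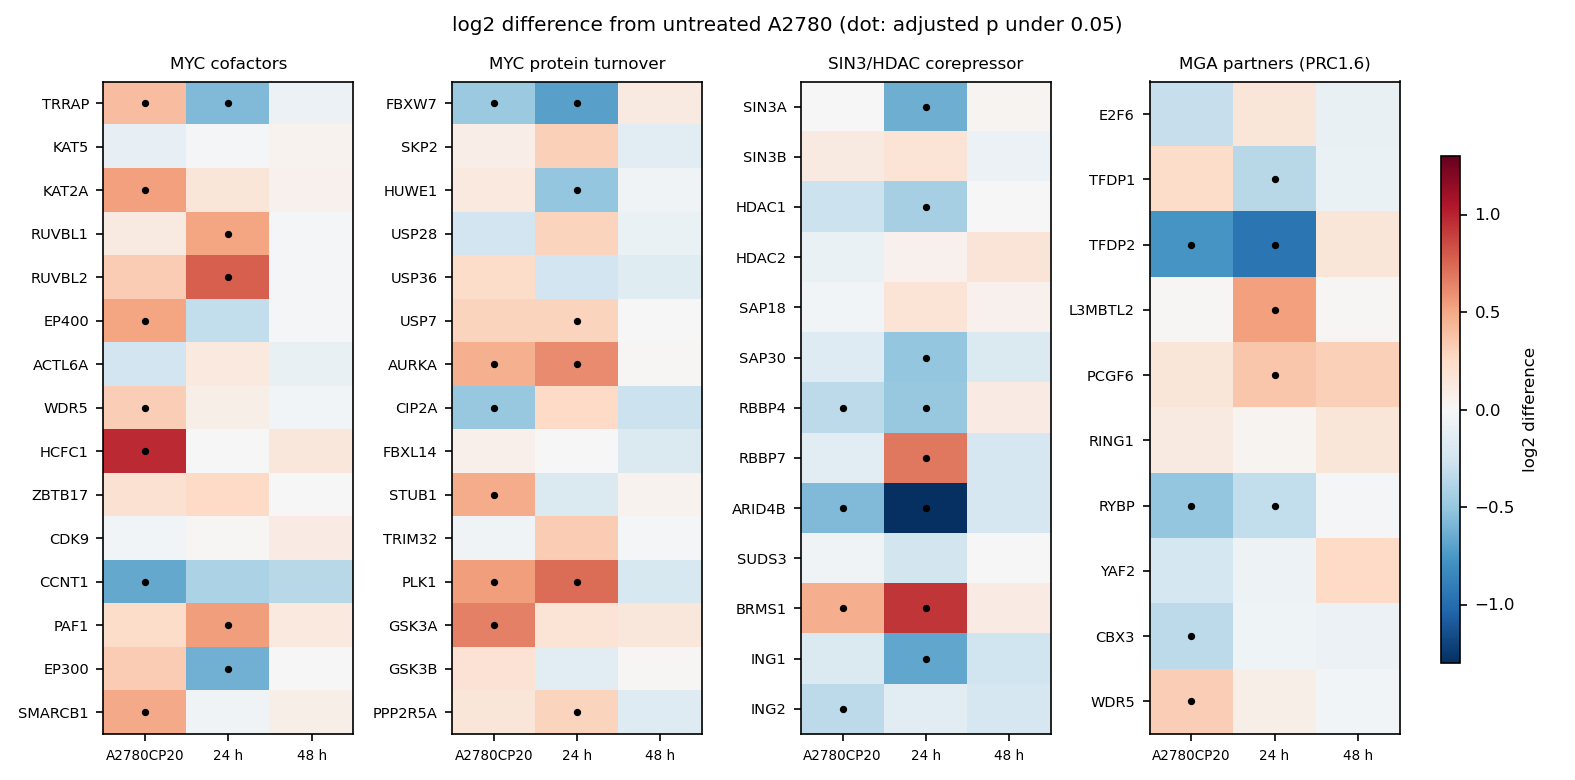
Log2 difference from untreated A2780 for measured genes of 4 lists around the network (15 MYC cofactors, 15 genes of MYC protein turnover, 13 SIN3 and HDAC genes and 10 MGA partners), with a dot where the adjusted p was under 0.05. The 48 h columns hold no dot.

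Among cofactors that MYC uses to activate genes, more were higher than lower in A2780CP20. In A2780CP20 6 of 15 rose and 1 fell (median 0.32), and on the arrays labelled 24 h 3 rose and 2 fell (median 0.02). Of all genes 6.37% rose and 12% fell in A2780CP20, and 14.9% rose and 15.3% fell at 24 h, so the counts at 24 h were near the background. TRRAP, the scaffold of the acetyltransferase complexes that MYC recruits, read 9.65 and 9.84 in A2780CP20, against 9.27 and 9.42 in untreated A2780 (0.40 ± 0.11, adjusted p = 0.0335). On the arrays labelled 24 h it read 8.75 and 8.79, a fall of -0.58 ± 0.11 (adjusted p = 0.00357). HCFC1, a chromatin cofactor that binds MYC, rose in A2780CP20 (0.97 ± 0.14), and the helicase genes RUVBL2 (0.78 ± 0.10) and RUVBL1 (0.52 ± 0.11) rose at 24 h. With only the groups compared the count of 6 in A2780CP20 was 1, while all genes called went from 3388 to 1022. The count was also lower without any 1 array of untreated A2780 or any 1 labelled 24 h or 48 h. Fewer of all genes were called there too.

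Among 15 measured genes that control the turnover of MYC protein, 4 rose and 2 fell at 24 h and 4 rose and 2 fell in A2780CP20. The shares of all genes were 14.9% higher and 15.3% lower at 24 h and 6.37% higher and 12% lower in A2780CP20, so both counts of lower genes were near the background. FBXW7, the ubiquitin ligase subunit that marks phosphorylated MYC for destruction, read 7.48 and 7.43 on the arrays labelled 24 h and 7.59 and 7.77 in A2780CP20, against 8.11 and 8.21 in untreated A2780. It fell in both (-0.71 ± 0.10, adjusted p = 0.000767, and -0.48 ± 0.10, adjusted p = 0.0131), with no overlap with untreated A2780. AURKA, a mitotic kinase that shields MYCN protein from FBXW7, rose in both (0.61 ± 0.10 at 24 h and 0.47 ± 0.10 in A2780CP20). At 48 h 0 of these 15 and 0 of the 15 cofactors were called by limma, with 1 turnover gene lower and 0 cofactors at an unadjusted p under 0.05.

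MLX, the partner that replaces MAX in the glucose-sensing arm, and its binding partner MLXIP did not follow MAX. MLX rose at 24 h (0.54 ± 0.12, adjusted p = 0.0113) and MLXIP rose in A2780CP20 (0.86 ± 0.14, adjusted p = 0.00524) and at 24 h (0.43 ± 0.14, adjusted p = 0.0448). MLXIPL, the paralog known from liver, was not called in either comparison.

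The genes whose profile over the 8 arrays was most like that of MYC were PTPN13, ROBO1, LMO3, CHD9 and ZSWIM6, each taken as its deviation from its mean in untreated A2780. Their root mean square differences from MYC were 0.068, 0.069, 0.087, 0.091 and 0.092 log2 units. ROBO1, for example, read 9.64 and 9.58 on the arrays labelled 24 h, against 11.01 and 10.97 on those of untreated A2780, and like MYC it was lower on A2780CP20 replicate 1 (10.56) than on replicate 2 (10.99). The likeness is set mostly by the pair of arrays labelled 24 h, on which all 5 fell by 1.29 to 1.38 on the log2 scale.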

How the data were processed

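The deposited values are log2 intensities by their range (1.80 to 14.99, 2 decimals); for background correction, normalization and probe summary, what the authors did is not stated in the sources at hand. Per the submitters' processing notes Partek was among the tools. Of 33297 probe sets, 19460 had 1 gene symbol in the platform annotation, 1754 several and 12083 were unnamed here; the highest-mean probe set stood for each of 18417 genes. Groups came from sample titles. Group means were estimated from all 8 arrays together with limma version 3.58.1 in R version 4.3.3 (residual degrees of freedom 4, prior 4.48), for all 6 pairs of groups, two-sided, and the procedure was tested on simulated data. The number of arrays limits the precision. The members and lists were chosen with earlier results of these data known. Beside the 10 members, genes named were up to 4 called genes of the largest change per list and comparison, or up to 2 of smallest p where none was called, and the 5 nearest to MYC. FN1, HDAC1, HDAC2, SIN3B, TFB2M and VIM fall outside that rule and were chosen after their values were seen. The 7 lists around the network held 136 genes, 123 of them measured. Symbols were matched to the RefSeq table of GRCh38.p14. Alternatives were quantile normalization, median centring, a filter on dim genes, probe set handling, other priors, fewer arrays and a replicate block.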

Additional observations from a re-analysis of the deposited data

Results flagged for a closer look

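For 5 genes the difference from untreated A2780 at 48 h and that at 24 h were unequal by limma's test of 48 h against 24 h. That test directly uses both pairs of arrays labelled as treated. With its sign, 48 h minus 24 h was 1.36 for MXD4 (adjusted p = 3.69e-05 in limma) and 1.34 for MYC (adjusted p = 0.00011). It was 1.04 for MXD1 (adjusted p = 0.00101), 0.64 for MXI1 (adjusted p = 0.0027) and 0.35 for MNT (adjusted p = 0.0202). In size, the change from untreated A2780 was larger at 24 h for all 5 genes. For MYC it was -1.42 at 24 h and -0.08 at 48 h, and for MXD4 -1.39 and -0.03. For all 5 genes the arrays labelled 24 h lay below the 6 others, those of A2780CP20 included. The arrays labelled 24 h also differed from all others across the genome (r at most 0.952), and the part of that in these values was not tested. Groups of 2 arrays are too small for a search for single outlying arrays.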

How the results depend on the processing

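Member differences were recomputed with quantile normalization, median centring, no dim genes, averaged or all probe sets, other priors, a replicate block and the compared groups alone. They were also recomputed with no arrays labelled 24 h where a comparison did not need them, and without each array in turn. In the latter, the lone array left in a group is assumed to vary like the other groups. For 24 h and 48 h against A2780CP20, a member was included only if it was called in some comparison. It also had to be called there, or those groups had to be neighbours in its order of levels. The values counted below were thus partly chosen by the calls. MYCN has no value without dim genes. Of 835 such values, 779 kept direction and side of the threshold, 21 lost their call, 16 gained one and 19 turned sign. The falls of MYC, MXD1, MXI1 and MXD4 at 24 h were called in all 17 alternatives, with MYC between -1.463 and -1.365. The count of 10 members called in A2780CP20 against A2780, 1, was 0 with an intensity trend in the prior, a robust prior, only the groups compared, the replicate block and no arrays labelled 24 h, and 0 to 2 without single arrays. At 24 h the count of 4 ranged from 4 to 7 without single arrays, and for 48 h against A2780CP20 the count of 1 ranged from 0 to 3. All sign changes were in differences that were not called. With quantile normalization MAX and MXD3 at 48 h against 24 h were -0.008 and -0.014, and MYCN at 48 h was 0.067. With median centring MXD4 and MYCN at 48 h were 0.005 and 0.025. Without single arrays, 48 h against 24 h gave -0.01 to 0.11 for MAX, -0.05 to 0.08 for MXD3 and -0.015 to 0.225 for MYCL. At 48 h against A2780 MXD4 gave -0.11 to 0.05, MXI1 -0.08 to 0.19 and MYCN -0.165 to 0.145, and at 24 h MYCN gave -0.21 to 0.1. In A2780CP20 the ranges were -0.065 to 0.195 for MXD3, -0.02 to 0.22 for MXD4, -0.13 to 0.01 for MXI1 and -0.265 to 0.045 for MYCN. The cause of these changes was not tested.

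The labels do not say that replicate numbers pair the arrays. Deviations from group means correlated at 0.002 to 0.181 between same-numbered arrays of the 6 pairs of groups, above 0.1 in 3, so the numbers were not taken as pairs. The replicate block ended the MNT call in A2780CP20 (adjusted p = 0.0564), which took that count to 0, added MYCL at 24 h (adjusted p = 0.03) and changed no other member's call. Signal over background is not known for low values, which limits MYCN.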
